A study of Mus musculus with 8 samples.

Results

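Mouse hearts were profiled by RNA-sequencing, and 10 genes whose proteins are made by mucosal glands and surface epithelium were followed, namely Ltf, Reg3g, Pigr, Lcn2, Muc5b, Agr2, Aqp5, Aqp3, Tff2 and Dmbt1. They make up 10 of the 25929 mouse genes in the expression table, all 10 were found by their Ensembl identifiers, and 9 passed the filter on low values. The genes were chosen by their values in all 8 libraries, together with what they are known to encode, so their levels and changes are given as a description. Where a fit over all genes called some of them, the count stands beside the share of all genes called, and nothing is read from it.

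The heart samples came from wild-type littermates (WT, strain C57BL/6 in the labels) and from transgenic fat-1 mice, each after a sham operation or transverse aortic constriction (TAC). TAC narrows the aorta with a suture and loads the left ventricle with pressure, and the sham mice had the chest opened without constriction. Wild-type mice gave the groups WT-TAC and WT-Sham, and fat-1 mice gave Fat1-TAC and Fat1-Sham, with 2 libraries each, described by the labels as independent samples, and a library is named by its group and number, as in WT-TAC1. All mice were 3 months old at surgery, and the same open chest procedure was shared by all 4 groups. The fat-1 transgene comes from a nematode, Caenorhabditis elegans, and its enzyme makes n-3 polyunsaturated fatty acids (PUFAs) out of n-6 PUFAs, a step that mammals lack. The promoter that drives the transgene, the sex of the mice and whether animals were pooled were not given in the sources used here, and mRNA of the transgene was not analysed here. The labels name ventricular tissue as the source of RNA, whereas the methods name whole hearts.

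Mucosal surfaces, such as those of the airways, gut and salivary glands, are covered by a gel of secreted mucins that submucosal glands and goblet cells release. Into this gel the epithelium secretes proteins that bind bacteria or withhold iron from them, and it carries antibody of class A (IgA) across the cell layer, while water channels supply the fluid. Heart muscle has no such glands, and none of these functions belongs to cardiomyocytes, the contractile cells of the heart.

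The values are FPKM, the fragments of a gene per kilobase of transcript scaled to the total of the library, and the fragments behind each value could be recovered as whole numbers. The depth was between 14163994 and 21218331 fragments per library. A count of 3 fragments was used as the detection floor, and intervals are exact 95% intervals that cover counting error only, since amplified reads that carry no molecular identifiers are not separate molecules. The library WT-TAC1 stood apart from the others. The summed level of 7 thymocyte genes was 1233 FPKM in WT-TAC1 and between 0.149 and 0.899 FPKM in the other 7 libraries. The summed level of 8 cardiomyocyte genes was 25254 FPKM in WT-TAC1, 46020 FPKM in WT-TAC2 and between 51496 and 61029 FPKM in the others, so the defining genes of heart muscle were abundant in every library. The median log2 change of all 14442 genes tested was 0.39 for WT-TAC against WT-Sham and -0.40 for Fat1-TAC against WT-TAC, so that changes of the 10 genes are also given relative to these shifts.

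Upstream sequences of 4 of the genes are shown because 9 of the 10 moved together across the libraries and Lcn2 did not. RefSeq (GRCm38.p6) gave a window of 250 bases before to 50 bases after the start site for 7 of the 10 genes, and none was found for Muc5b, Tff2 and Dmbt1. Capitals mark matches, on either strand, to 6 patterns: TGTTTAC for FOXA factors, TTNNGNAA for C/EBP factors, GGNNNTTCC for NF-kappa-B, TTCNNNGAA for STAT factors, GGAAGT for ETS factors and TATAAA for the TATA box.
Ltf, chr9:111019042-111019341, plus strand: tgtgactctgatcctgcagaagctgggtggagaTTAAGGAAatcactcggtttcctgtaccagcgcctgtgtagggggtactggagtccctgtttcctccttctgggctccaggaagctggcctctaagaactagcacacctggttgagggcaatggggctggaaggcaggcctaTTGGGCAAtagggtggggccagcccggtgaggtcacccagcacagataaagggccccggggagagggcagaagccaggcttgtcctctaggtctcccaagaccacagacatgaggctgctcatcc
Reg3g, chr6:78468825-78469124, minus strand: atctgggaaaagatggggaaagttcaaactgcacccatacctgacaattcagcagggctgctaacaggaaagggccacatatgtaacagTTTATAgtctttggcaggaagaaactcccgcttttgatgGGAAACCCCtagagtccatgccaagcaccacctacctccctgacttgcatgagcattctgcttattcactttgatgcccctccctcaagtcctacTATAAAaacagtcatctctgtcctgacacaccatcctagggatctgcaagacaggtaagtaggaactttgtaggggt
Pigr, chr1:130826434-130826733, plus strand: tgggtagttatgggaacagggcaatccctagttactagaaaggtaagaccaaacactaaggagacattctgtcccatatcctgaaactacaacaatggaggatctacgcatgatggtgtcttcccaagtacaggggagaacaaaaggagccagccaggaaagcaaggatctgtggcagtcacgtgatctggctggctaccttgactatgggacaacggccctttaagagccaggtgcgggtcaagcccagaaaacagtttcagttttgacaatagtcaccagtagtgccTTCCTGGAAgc
Lcn2, chr2:32387690-32387989, minus strand: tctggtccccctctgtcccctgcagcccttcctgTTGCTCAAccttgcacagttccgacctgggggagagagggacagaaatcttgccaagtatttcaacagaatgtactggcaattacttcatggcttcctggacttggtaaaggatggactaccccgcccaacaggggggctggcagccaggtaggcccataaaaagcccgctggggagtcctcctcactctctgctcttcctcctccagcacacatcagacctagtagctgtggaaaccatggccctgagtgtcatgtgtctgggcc

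The Ltf window held the C/EBP pattern at -217 and -75 relative to the start site, and the Lcn2 window held it on the other strand at -216. This pattern was present in 40.7% of all 32851 promoter windows and in 2 of the 7 windows of these genes. The Reg3g window held the TATA pattern at -27, and on the other strand at -161, and the NF-kappa-B pattern on the other strand at -122. The TATA pattern was also at -29 in the Aqp3 window, in 13.6% of all windows and in 2 of 7 here. The NF-kappa-B pattern was in 2 of 7 windows (Reg3g and Aqp5) and in 18.5% of all, the STAT pattern in 1 of 7 (Pigr, at 40 after the start) and in 8.3% of all, and the ETS pattern in 1 of 7 (Aqp5, where it overlaps the NF-kappa-B match) and in 23.8% of all. The FOXA pattern was in 0 of 7 windows and in 3.65% of all. No pattern was common to the windows of the genes that moved together, and the Agr2 window held none. These matches describe letters in a window and not bound sites.

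In both WT-TAC libraries, 9 of the 10 genes were higher than in every one of the 6 other libraries, a pattern that 33.3% of all listed genes showed. Both WT-TAC libraries were above both WT-Sham libraries for 9 of the 10 genes, where 46.4% of all listed genes had this order, and both Fat1-TAC libraries were below both WT-TAC libraries for 10 of 10, where 48.7% had it. Without Lcn2, the genes collected 2121 fragments in WT-TAC1 and 4607 in WT-TAC2, against 5 and 13 in the WT-Sham libraries, 37 and 12 in the Fat1-Sham libraries and 11 and 24 in the Fat1-TAC libraries. All 10 genes were above 0 in WT-TAC1 and WT-TAC2, and between 3 and 6 were at 0 in each other library. In bulk tissue, fewer cells of a type and less RNA per cell cannot be told apart.

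**Figure D1:**
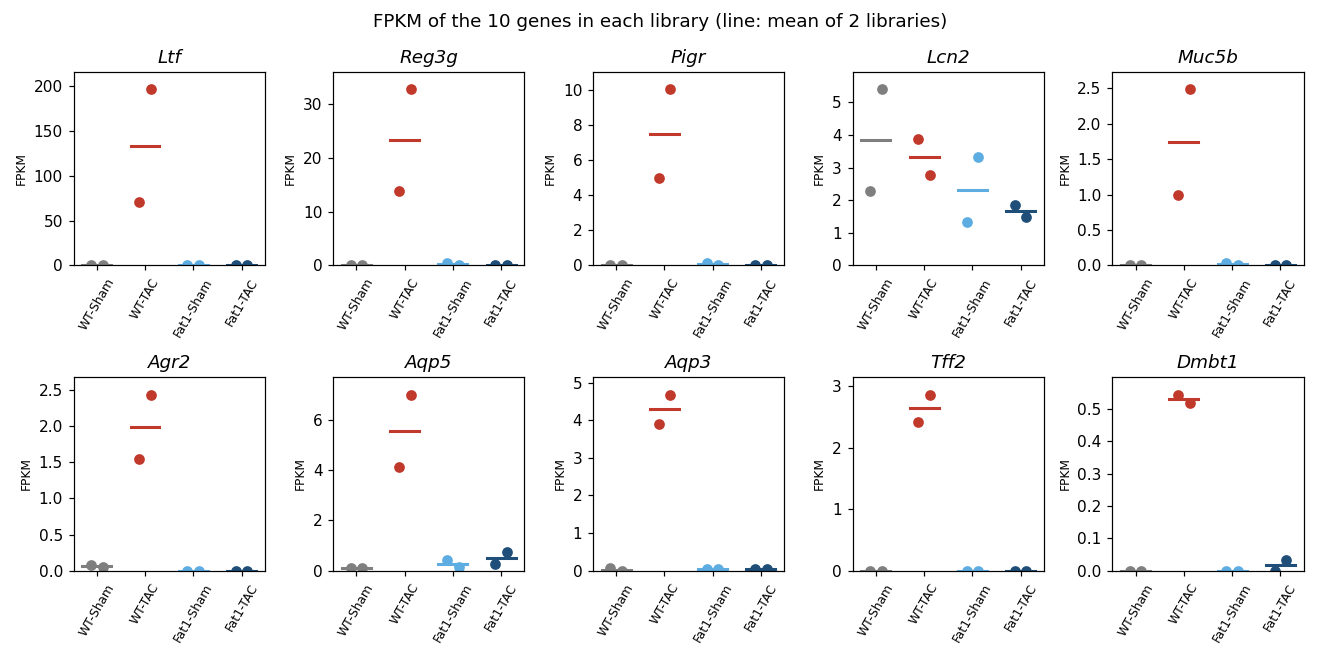
FPKM (linear axis, from 0, a separate scale per gene) of the 10 genes in each of the 8 libraries by group, where a point is a library and a line is the mean of 2 libraries. Both WT-TAC points lie above all others for 9 genes, whereas for Lcn2 the highest point is WT-Sham2 at 5.39 FPKM.

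The antimicrobial proteins came first by level. Ltf (ENSMUSG00000032496, chr9:111019271-111042767, plus strand, GENCODE M21 on GRCm38) encodes lactoferrin, an iron-binding protein of milk, tears and airway secretions that is also stored in the granules of neutrophils. Its level was 0.104 and 0.484 FPKM in the WT-Sham libraries, 71.2 and 196 FPKM in the WT-TAC libraries, 0.165 and 0.300 FPKM in the Fat1-Sham libraries and 0.236 and 0.0809 FPKM in the Fat1-TAC libraries. The WT-TAC libraries thus stood far above all others, and the remaining 3 groups overlapped. The mean was 134 ± 88.5 FPKM in WT-TAC and 0.294 ± 0.269 FPKM in WT-Sham (SD, n = 2), a log2 difference of 6.54 on the FPKM + 1 scale and 6.15 above the shift of all genes. Between WT-TAC and WT-Sham, fragments of Ltf differed 394-fold (95% interval 200 to 912), from 3363 against 8 fragments. In Fat1-TAC only 4 fragments were found, and the log2 difference from WT-TAC was -6.69.

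The level of Ltf depends on the length by which its fragments were divided. The deposited values correspond to a length of 681 bases, whereas the longest of its 12 annotated transcripts has 2743 bases, 4.03 times as many. Divided by the longest transcript, Ltf would stand at 17.7 FPKM in WT-TAC1 and 48.8 FPKM in WT-TAC2. It would then still be above Reg3g, at 9.46 and 22.4 FPKM on the same scale. Ratios between libraries are not touched by this length.

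Reg3g (ENSMUSG00000030017, chr6:78466269-78468872, minus strand) encodes a secreted C-type lectin that binds the cell wall of Gram-positive bacteria and is best known from the gut. It was at 13.8 and 32.7 FPKM in WT-TAC, at 0.393 FPKM in Fat1-Sham1 and at 0 in the other 5 libraries. Against the floor of 3 fragments per library, the WT-TAC level of Reg3g was at least 188-fold higher than that of WT-Sham, and at least 204-fold lower in Fat1-TAC than in WT-TAC. Its log2 difference was 4.48 for WT-TAC against WT-Sham, 4.09 above the shift of all genes.

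Dmbt1 (ENSMUSG00000047517, chr7:131032053-131121630, plus strand, in a region that also holds part of the Fgfr2 gene) encodes a large scavenger receptor protein of saliva and mucus that binds bacteria. It was the least abundant of the genes, with 0.545 and 0.518 FPKM in WT-TAC (36 and 31 fragments), 0.0331 FPKM in Fat1-TAC2 (2 fragments) and 0 in the other 5 libraries. It did not reach 1 FPKM in 2 libraries and therefore entered no fit with that filter. Against the floor it was at least 10.03-fold higher in WT-TAC compared with WT-Sham, and the ratio of Fat1-TAC to WT-TAC was 0.0306 (95% interval 0.00364 to 0.115). Fgfr2 and Dmbt1 could share fragments in counting without strand, and whether the counting used strand was not given in the sources used here.

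Lcn2 (ENSMUSG00000026822, chr2:32384633-32388252, minus strand) did not follow the other 9 genes. It encodes lipocalin 2, which binds the iron carriers of bacteria and is made by neutrophils, epithelium and many stressed tissues. Its level was 2.29 and 5.39 FPKM in WT-Sham, 3.87 and 2.77 FPKM in WT-TAC, 1.34 and 3.31 FPKM in Fat1-Sham and 1.85 and 1.49 FPKM in Fat1-TAC. The WT-TAC libraries lay between the WT-Sham libraries, and the log2 difference was -0.10, which is 0.49 below the shift of all genes. The sign of this difference was positive, 0.38, without WT-Sham2 and 0.09 without WT-TAC2. Both Fat1-TAC libraries were below both WT-TAC libraries, a ratio of fragment rates of 0.4999 (95% interval 0.358 to 0.692) and a log2 difference of -0.69, of which -0.28 remained after the shift of all genes.

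The neutrophil genes were set beside Lcn2 because neutrophils store its protein. S100a8, a calcium-binding protein of neutrophils, was at 7.89 and 17.6 FPKM in WT-Sham, 8.30 and 2.72 FPKM in WT-TAC, 3.20 and 4.16 FPKM in Fat1-Sham and 1.63 and 1.79 FPKM in Fat1-TAC. Its partner S100a9 was likewise highest in WT-Sham2, at 16.2 FPKM, as was Lcn2. Over the 8 libraries, the log2 levels of Lcn2 correlated with those of S100a8 at r = 0.80 and of S100a9 at r = 0.74, whereas the mean of the 10 genes correlated with them at 0.03 and -0.08. Other neutrophil genes did not share this split, since Mmp9 correlated at 0.41 with Lcn2 and 0.78 with the mean of the 10, and Ngp at 0.45 and 0.62. Over all 11 neutrophil genes r with Lcn2 lay between 0.05 (Mpo) and 0.80. These are descriptions over 8 libraries that share depth and composition. Of the 11 neutrophil genes listed, 4 passed the filter and 0 were called by limma in any comparison. Their median log2 difference was -0.76 for WT-TAC against WT-Sham, where 2 had an unadjusted limma p under 0.05. It was -1.17 for Fat1-Sham against WT-Sham, where 3 had such a p, and -1.03 for Fat1-TAC against WT-TAC, where 1 had. For Fat1-TAC against Fat1-Sham it was -0.40, with 0 such genes. The summed level of the 11 genes was 22.3 and 41.9 FPKM in WT-Sham and 30.0 and 11.4 FPKM in WT-TAC. It lay between 9.998 and 11.3 FPKM in Fat1-Sham and between 6.51 and 7.43 FPKM in Fat1-TAC. Within the list the genes differed, and Mmp9, a protease of neutrophil granules, was highest in WT-TAC1 at 10.2 FPKM, whereas Mpo, a neutrophil enzyme, was at no more than 0.0433 FPKM in every library. The part of neutrophils in the levels of Ltf and Lcn2 was not tested.

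The genes of the mucus gel were present in WT-TAC at low levels. Muc5b (ENSMUSG00000066108, chr7:141839070-141873084, plus strand) encodes the gel-forming mucin of airway glands. It was at 1.001 and 2.49 FPKM in WT-TAC, at 0.0301 and 0.00684 FPKM in Fat1-Sham, at 0.00315 FPKM in WT-Sham2 and at 0 in WT-Sham1 and both Fat1-TAC libraries. Its transcript is long, 14964 bases, so that these low levels rested on 297 and 668 fragments, more than those of Pigr. The ratio of WT-TAC to WT-Sham was 904 (95% interval 162 to 35724), since WT-Sham held a single fragment. On the FPKM + 1 scale the same difference was 1.40, because this scale compresses genes near 1 FPKM.

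Agr2 (ENSMUSG00000020581, chr12:35992907-36004087, plus strand) encodes a disulfide isomerase of the endoplasmic reticulum that is needed to fold mucins. It was at 0.0835 and 0.0557 FPKM in WT-Sham, 1.55 and 2.44 FPKM in WT-TAC and 0 in all 4 libraries of fat-1 mice. The WT-TAC values rested on 26 and 37 fragments, and the ratio to WT-Sham was 29.5 (95% interval 7.83 to 249). Against the floor it was at least 10.3-fold lower in Fat1-TAC than in WT-TAC. Tff2 (ENSMUSG00000024028, chr17:31141049-31144282, minus strand) encodes a trefoil peptide that is secreted with mucins. It was found in the WT-TAC libraries alone, at 2.42 and 2.86 FPKM (28 and 30 fragments), with 0 fragments in each of the 6 others, at least 8.73-fold higher than in WT-Sham.

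Pigr (ENSMUSG00000026417, chr1:130826684-130852249, plus strand) encodes the receptor that carries polymeric IgA through epithelial cells into secretions. It was at 4.98 and 10.04 FPKM in WT-TAC, at 0.157 and 0.0286 FPKM in Fat1-Sham and at 0 in both WT-Sham and both Fat1-TAC libraries. Against the floor it was at least 76.2-fold higher in WT-TAC compared with WT-Sham and at least 82.6-fold lower in Fat1-TAC than in WT-TAC. Its cargo was less even. Igha, the heavy chain of IgA, was at 153 FPKM in WT-TAC1, 13.0 FPKM in WT-TAC2 and 4.09 FPKM in Fat1-TAC2, and at most 0.371 FPKM in the other 5 libraries. Jchain, which joins IgA into the polymers that the receptor binds, was at 67.4 and 28.7 FPKM in WT-TAC and at 24.5 FPKM in Fat1-TAC2, a library in which Pigr was at 0. Thus Pigr was higher in WT-TAC2 and Igha in WT-TAC1.

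The water channels had different levels outside WT-TAC. Aqp5 (ENSMUSG00000044217, chr15:99590782-99594829, plus strand) forms the water channel of the secretory face of gland cells. It was at 0.0965 and 0.129 FPKM in WT-Sham, 4.13 and 6.998 FPKM in WT-TAC, 0.423 and 0.140 FPKM in Fat1-Sham and 0.256 and 0.753 FPKM in Fat1-TAC. It was thus above 0 in every library, and its 20 fragments in Fat1-TAC2 were the most that any of the genes except Lcn2 had outside WT-TAC. The fold from WT-Sham to WT-TAC was 47.4 (95% interval 21.5 to 130), and the ratio of Fat1-TAC to WT-TAC was 0.0911 (95% interval 0.0591 to 0.135). Aqp3 (ENSMUSG00000028435, chr4:41092722-41098183, minus strand) forms the channel for water and glycerol on the tissue side of epithelial cells. It was at 3.91 and 4.68 FPKM in WT-TAC and at no more than 0.0652 FPKM, a single fragment, in each other library. The ratio of WT-TAC to WT-Sham was 164 (95% interval 29.0 to 6508), and that of Fat1-TAC to WT-TAC was 0.0117 (95% interval 0.00141 to 0.0430).

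Within WT-TAC, the order of the levels per length was Ltf, Reg3g, Pigr, Aqp5, Aqp3, Tff2, Lcn2, Muc5b, Agr2 and Dmbt1 in WT-TAC2. In that library the counting intervals of Aqp3 (3.77 to 5.74 FPKM) and Tff2 (1.93 to 4.08 FPKM) overlapped, as did those of Tff2, Lcn2, Muc5b and Agr2 with one another, so these neighbours were not told apart. In WT-TAC1, Lcn2 stood before Tff2 and Agr2 before Muc5b. There the intervals of Pigr (4.28 to 5.78 FPKM), Aqp5, Aqp3, Lcn2, Tff2, Agr2 and Muc5b overlapped from each to the next, so neighbours were not told apart. Ltf and Reg3g led in both libraries with intervals that met no other. Part of the order turned with the length used. Divided by the longest transcript, Aqp5 stood above Pigr in both WT-TAC libraries (3.37 against 2.32 FPKM and 5.70 against 4.67 FPKM), and Muc5b stood above Lcn2 in WT-TAC2 (2.49 against 1.86 FPKM). In the other 6 libraries Lcn2 had the highest level of all 10 genes.

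The counts of called genes were read with their background. limma was fitted over all genes, and calls needed a p adjusted after Benjamini and Hochberg below 0.1 together with a fold over 1.5. In WT-TAC compared with WT-Sham, 7 of the 9 genes tested (Ltf, Reg3g, Pigr, Agr2, Aqp5, Aqp3 and Tff2) were called higher, and 0.921% of all genes tested were called in this direction. For Fat1-TAC against WT-TAC the same 7 were called lower, with 1.39% of all genes called in this direction. Both comparisons use the WT-TAC libraries, and both are comparisons on which the genes were selected, so nothing is read from these counts. The median log2 difference of the 9 genes was 2.36 and -2.11, beside 0.39 and -0.40 for all genes tested. Without WT-TAC1, 8 genes were called higher and 8 lower, Muc5b being added, with the single WT-TAC library assumed to vary like the other groups. Without WT-Sham1, and equally without WT-Sham2, 0 genes were called for WT-TAC against WT-Sham, and without Fat1-TAC1 only Ltf was called lower in Fat1-TAC. With limma-voom on the recovered fragments, 0 of the 9 were called higher in WT-TAC and 6 were called lower in Fat1-TAC.

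Between the groups without WT-TAC, the genes other than Lcn2 differed by 12 fragments or fewer. Lcn2 had 82 fragments in Fat1-Sham and 136 in WT-Sham, a ratio of fragment rates of 0.571 (95% interval 0.429 to 0.757), and 57 in Fat1-TAC, a ratio to Fat1-Sham of 0.705 (95% interval 0.493 to 1), although its libraries overlapped in both comparisons. For Fat1-Sham against WT-Sham, 0 of the 9 genes were called by limma, as were 0% of all genes tested, 0 had an unadjusted p under 0.05, and limma-voom on the recovered fragments called 0. For Fat1-TAC against Fat1-Sham, limma and limma-voom again called 0 of the 9, 0 had an unadjusted p under 0.05, and 0.00692% of all genes tested were called by limma. The median log2 differences of the 9 genes were 0.02 and -0.03. The libraries did not overlap for 4 of the 10 genes in the first of these comparisons (Pigr, Muc5b and Aqp5 higher in Fat1-Sham and Agr2 lower), where 27.6% of all listed genes did not overlap, and for 2 of the 10 (Pigr and Muc5b lower in Fat1-TAC) in the second, where 38.1% did not.

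Without Lcn2, 37 of the fragments in Fat1-Sham came from Fat1-Sham1 and 12 from Fat1-Sham2, whereas Lcn2 (22 against 60) and Ltf (2 against 4) had more in Fat1-Sham2. Fat1-Sham1 held 10 fragments of Reg3g, 8 of Muc5b, 5 of Pigr and 11 of Aqp5, against 0, 2, 1 and 4 in Fat1-Sham2. Relative to depth, Fat1-Sham1 held 2.84% of the WT-TAC1 level of Reg3g (95% interval 1.35% to 5.29%), 3.15% of that of Pigr (1.01% to 7.49%) and 3.00% of that of Muc5b (1.28% to 6.00%). For Aqp5 it was 10.2% (4.97% to 18.9%). For Ltf the share was 0.232% (0.0281% to 0.841%), an interval that lies below those of the other 3 genes. The club cell gene Scgb3a2 had a share of 3.04% (2.08% to 4.29%) in the same library, another club cell gene, Scgb1a1, one of 4.68% (4.14% to 5.27%), Bpifa1, a secreted airway protein, one of 1.76% (1.49% to 2.07%) and the alveolar gene Sftpc one of 40.1% (35.8% to 44.8%). The shares in Fat1-Sham1 thus were unequal between genes. The part of such cells in these values was not tested.

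The 2 WT-TAC libraries were compared gene by gene. The fragment rate was higher in WT-TAC2 than in WT-TAC1 for Ltf (2.76-fold, 95% interval 2.56 to 2.98), Muc5b (2.48-fold, 2.16 to 2.86), Reg3g (2.37-fold, 2.10 to 2.68), Pigr (2.02-fold, 1.67 to 2.43) and Aqp5 (1.69-fold, 1.34 to 2.15). For Agr2, Aqp3, Tff2, Dmbt1 and Lcn2 the interval held 1, with ratios between 0.715 and 1.57. All 8 cardiomyocyte genes were also higher in WT-TAC2, by 1.72-fold to 1.96-fold with a median of 1.84, so that the ratios of Pigr and Aqp5 were close to those of heart muscle genes. The ratios of Ltf, Muc5b and Reg3g had intervals above this range, and those of Aqp3 at 1.20-fold, Dmbt1 and Lcn2 had intervals below it.

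**Figure D2:**
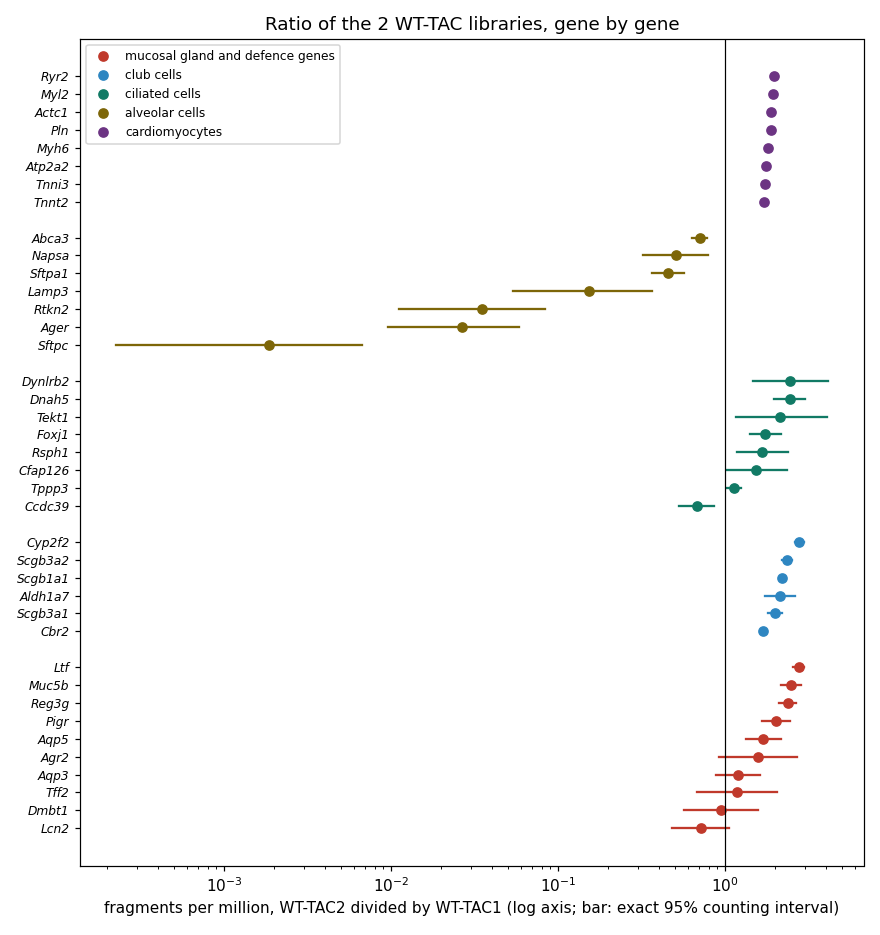
Fragments of a gene relative to the library total, in WT-TAC2 divided by WT-TAC1 (log axis) for the 10 genes and for club, ciliated, alveolar and cardiomyocyte genes with 20 fragments or more in the pair and some in each, where a point is the ratio and a bar its exact 95% counting interval. Ltf lies at 2.76 and Lcn2 at 0.715, all 6 club cell genes and all 8 cardiomyocyte genes lie above 1 and the alveolar genes below 1.

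Genes of other cell types moved with the 10 genes across the libraries. Of 6 club cell genes, which mark the secretory cells of small airways, 5 were called with higher levels in WT-TAC (against WT-Sham) and 5 with lower levels in Fat1-TAC (against WT-TAC). Over all genes tested, 0.921% were called higher and 1.39% lower in these comparisons. The cell type lists were chosen with earlier results known. Genes high in WT-TAC alone passed the filter only through that group, so the counts of these lists are a description. Scgb1a1, the main secretory protein of club cells, was at 0.297 and 0.0990 FPKM in WT-Sham, 707 and 1555 FPKM in WT-TAC, 33.1 and 0.107 FPKM in Fat1-Sham and 0.450 and 0 FPKM in Fat1-TAC. Cbr2, second in level in this list, was at 311.9 and 529.5 FPKM in WT-TAC and between 28.3 and 61.1 FPKM in the other libraries. The WT-TAC2 to WT-TAC1 ratio of the 6 club cell genes was between 1.70 and 2.79. Of 8 ciliated cell genes, 6 passed the filter, 3 were called higher and 4 lower, with summed levels of 54.9 and 68.5 FPKM in WT-TAC and between 18.3 and 35.5 FPKM elsewhere. Of 13 general epithelial genes, all passed, and 8 were called higher and 8 lower. Their summed level was higher in WT-TAC1, at 294 FPKM, than in WT-TAC2, at 96.0 FPKM, and between 5.49 and 14.6 FPKM elsewhere. The 3 most abundant were present in WT-Sham, with Krt18 at 1.7 and 2.5 FPKM, Krt8 at 1.9 and 2.1 FPKM and Krt19 at 7.3 and 8.9 FPKM. Krt5, Cldn4 and Ehf were at 0 in both WT-Sham libraries.

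The summed levels of alveolar and thymocyte genes were higher in WT-TAC1 than in WT-TAC2, while those of cartilage and cardiomyocyte genes were lower. Of 8 alveolar genes, 5 passed and 0 were called by limma (3 had an unadjusted p under 0.05 for WT-TAC against WT-Sham), and their summed level was 110 FPKM in WT-TAC1, 13.8 FPKM in WT-TAC2, 42.3 FPKM in Fat1-Sham1 and between 4.48 and 7.34 FPKM in the other 5 libraries. Of 7 thymocyte genes found of 8 listed, 0 passed the filter, since they were high in WT-TAC1 alone, and Cd8a was at 266 FPKM there and at 0.228 FPKM in WT-TAC2. Of 8 cartilage genes, which mark the wall of large airways among other tissues, 4 passed, 1 (Acan) was called higher and lower in the same comparisons, and the summed level was 41.6 and 48.8 FPKM in WT-TAC and 40.9 FPKM in WT-Sham2, against 11.1 to 16.4 FPKM in the others. All 8 cardiomyocyte genes passed, 0 were called by limma and 0 had an unadjusted p under 0.05 for WT-TAC against WT-Sham, with a median log2 difference of -0.54. For Fat1-TAC against WT-TAC the median was 0.56, all 8 were above 0, 0 were called and 3 had an unadjusted p under 0.05. The part of any of these cell types in the levels of the 10 genes was not tested.

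**Figure D3:**
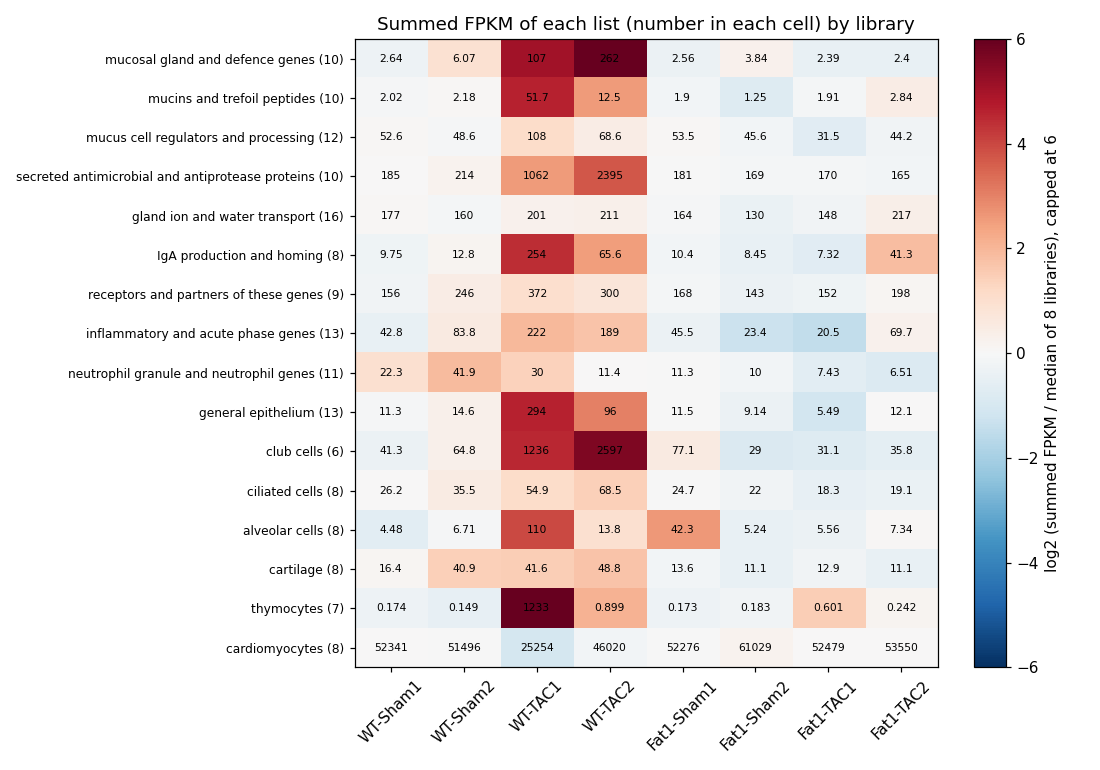
Summed FPKM of each gene list (rows, with the number of genes found) in each library (columns), printed in the cell and coloured by its log2 ratio to the median of the 8 libraries, capped at 6. The 10 genes reach 107 FPKM in WT-TAC1 and 262 FPKM in WT-TAC2 and lie between 2.39 and 6.07 FPKM elsewhere, and the thymocyte genes are high in WT-TAC1 alone.

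The wider set of mucosal genes was read from 7 lists with 87 genes beyond the 10, of which 78 were found and 44 passed the filter. In WT-TAC relative to WT-Sham, 8 of the 44 were called higher and 0 lower, where 0.921% of all genes were called higher, with a median log2 difference of 1.11 beside 0.39 for all genes. For Fat1-TAC against WT-TAC, 11 were called lower and 0 higher, where 1.39% of all genes were called lower, with a median of -1.27 beside -0.40. The lists were chosen with earlier results known, and genes that are high in WT-TAC alone passed the filter only through that group, so these counts are a description. For Fat1-Sham against WT-Sham and for Fat1-TAC against Fat1-Sham, limma and limma-voom called 0, limma gave 0 an unadjusted p under 0.05, and the medians were -0.21 and 0.11. In the interaction of genotype and surgery, which tests whether the response to TAC differed between the genotypes, 2 of the 44 were called, Wfdc2 and Bpifb1, beside 0.0692% of all genes tested. Leaving out a library left a single library in its group, and the calls on these lists then followed those of all genes. For WT-TAC against WT-Sham, every call was lost when WT-Sham1 or WT-Sham2 was dropped, on these lists and over all genes. Calls fell in both when a Fat1-Sham library was dropped, and rose in both when a Fat1-TAC library was dropped. For Fat1-TAC against WT-TAC, calls fell in both when any library but WT-TAC2 was dropped. When WT-TAC2 was dropped, calls rose steeply over all genes in both comparisons. The rise on these lists then rested on WT-TAC1 alone and was not particular to mucosal genes.

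Among the 7 lists of mucosal genes, secreted antimicrobial and antiprotease proteins held the most calls. Of 8 that passed, 4 were called for WT-TAC against WT-Sham, all higher in WT-TAC (Bpifa1, Bpifb1, Pglyrp1 and Wfdc2), and 5 were lower in Fat1-TAC than in WT-TAC, Lyz2 being added. Over all genes tested, 0.921% and 1.39% were called in these directions. The general epithelial list, counted apart, held 8 calls in each comparison. Bpifa1, a secreted protein of the upper airways, was at 0.436 and 0.0582 FPKM in WT-Sham, 600 and 1968 FPKM in WT-TAC, 10.6 and 0.0631 FPKM in Fat1-Sham and 0.0661 and 0 FPKM in Fat1-TAC, so that it exceeded Ltf in both WT-TAC libraries. Its log2 difference was 9.79 ± 1.04 (SE, limma adjusted p = 0.0222) for WT-TAC against WT-Sham. Lyz2, the lysozyme of macrophages and airway cells, was present in every library, with 171 and 193 FPKM in WT-Sham, 343 and 271 FPKM in WT-TAC and 139 to 161 FPKM in the fat-1 libraries. Its log2 difference was -1.02 ± 0.17 (SE, limma adjusted p = 0.0705) for Fat1-TAC against WT-TAC and 0.75 ± 0.17 (limma adjusted p = 0.154) for WT-TAC against WT-Sham. Retnla, a secreted resistin-like protein, was at 49.7 and 44.5 FPKM in WT-TAC and 20 FPKM in Fat1-TAC2, and it did not pass (limma adjusted p = 0.175).

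Other mucins and mucus cell genes were few. Of 10 mucins and trefoil peptides found, 3 passed and 1, the membrane mucin Muc1, was called in both comparisons, at 0.658 and 0.351 FPKM in WT-Sham, 3.62 and 5.29 FPKM in WT-TAC and 0.249 to 0.629 FPKM in the fat-1 libraries. Fcgbp, a mucus protein that binds mucins, was at 43.5 FPKM in WT-TAC1, 1.101 FPKM in WT-TAC2 and 0 in the 6 others, a division opposite to that of Muc5b, and did not pass the test (limma adjusted p = 0.176). Muc5ac and Muc20 were at 0 in all 6 libraries outside WT-TAC, and they were low in WT-TAC as well. There Muc5ac was at 0.0385 and 0.0425 FPKM and Muc20 at 0.0338 and 0.205 FPKM. Muc16, second in level in this list, was above 0 in every library. It was at 2.60 and 3.99 FPKM in WT-TAC and between 0.708 and 1.725 FPKM in the other libraries. Of 12 genes for mucus cell regulators and processing, 3 passed and 1, Foxa1, was called in both comparisons. Foxa1, a transcription factor of airway and gut epithelium, was at 1.48 and 2.38 FPKM in WT-TAC, 0.0624 FPKM in Fat1-Sham1 and 0 in the 5 others. Xbp1, the secretory stress factor that most cells express, was at 89.1 and 60.9 FPKM in WT-TAC and 29.6 to 51.1 FPKM in the others (limma adjusted p = 0.179 for WT-TAC against WT-Sham).

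Among 16 genes of ion and water transport, 8 passed and 1, the sodium channel subunit Scnn1a, was called in both comparisons. Aqp1, the water channel of blood vessel walls, was at 141 and 121 FPKM in WT-Sham, 110 and 155 FPKM in WT-TAC, 119 and 93.3 FPKM in Fat1-Sham and 108 and 172 FPKM in Fat1-TAC, and its WT-TAC and WT-Sham libraries overlapped (log2 difference -0.0031 ± 0.27, SE, limma adjusted p = 0.994). The glycerol channel Aqp7 lay between 13.0 and 26.3 FPKM in all 8 libraries. Aqp1 and Aqp7 were therefore more abundant in each library than Aqp3 and Aqp5, and for both of them the WT-TAC libraries overlapped the WT-Sham libraries.

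The IgA list held 6 genes that passed, of which 0 were called for WT-TAC against WT-Sham (5 had an unadjusted p under 0.05) and 1, the plasma cell surface protein Sdc1, was lower in Fat1-TAC than in WT-TAC. The log2 differences of Igha, at 5.39 ± 1.08 (SE, limma adjusted p = 0.119), and of Jchain, at 5.14 ± 1.13 (limma adjusted p = 0.143), were larger than that of Pigr but with a spread that kept them from the threshold. Of 8 receptors and partners that passed, 1 (Sftpd, a collectin of lung fluid) was higher in WT-TAC and 2 (Lgals3 and Sftpd) lower in Fat1-TAC. Lrp1, a lactoferrin receptor found on many cells, was between 87.3 and 182 FPKM in all libraries, and Tfrc, the transferrin receptor, between 21.1 and 52.9 FPKM. Extl3, a receptor of Reg3 proteins, was between 15.2 and 22.1 FPKM, so that the receptors named here were present in all libraries, also where Reg3g was at 0 and Ltf had 7 fragments or fewer. Of 8 inflammatory and acute phase genes that passed, 0 were called in either comparison (3 had an unadjusted p under 0.05 for WT-TAC against WT-Sham), and haptoglobin (Hp) was at 119 and 146 FPKM in WT-TAC but also at 56.2 FPKM in WT-Sham2 and 45.3 FPKM in Fat1-TAC2.

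**Figure D4:**
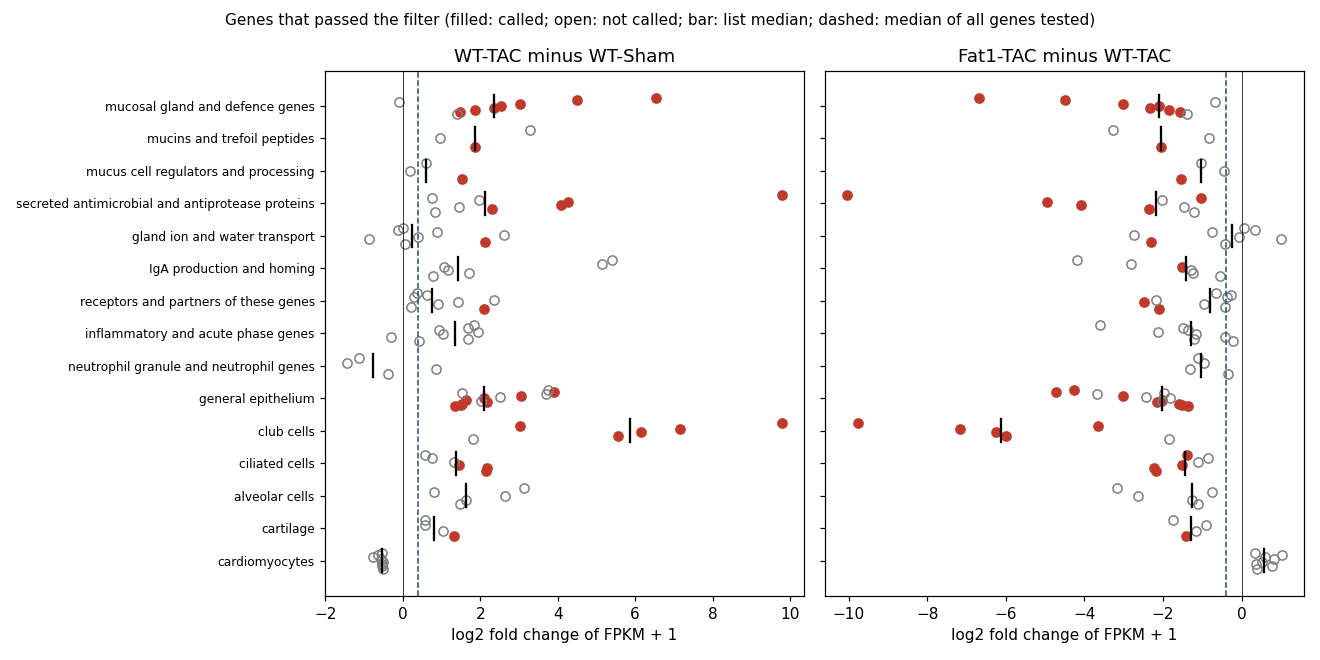
Log2 fold change of FPKM + 1 for WT-TAC against WT-Sham (left) and Fat1-TAC against WT-TAC (right), where each point is a gene that passed the filter, filled if called, a bar is the median of a list and the dashed line is the median of all genes tested, at 0.39 and -0.40. Lcn2 and Muc5b are the open points among the 10 genes, with Lcn2 at -0.10 on the left, and all 8 cardiomyocyte genes lie on the other side of 0.

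Within the 10 genes, the log2 levels of the 9 other than Lcn2 correlated with each other over the 8 libraries at between 0.94 and 0.9997 in 36 pairs, with a median of 0.99, while the 9 pairs with Lcn2 lay between 0.15 and 0.32. Such values rest on 2 high libraries and are a description only. The genes outside the 10 whose profile was most like their mean were Cfap206, Mir7087, Gpx2, Vpreb3, Gramd2, Akr1c18, Ighv3-5, Ighv14-4, Mir5623 and Cxcl17, with r between 0.998 and 0.9997 over 8 libraries. Cfap206 (a protein of motile cilia) was at 1.52 and 2.23 FPKM in WT-TAC and at most 0.0430 FPKM elsewhere, and Cxcl17 (a chemokine of mucosal surfaces) at 3.84 and 5.71 FPKM in WT-TAC and at most 0.186 FPKM elsewhere. Singly, Ltf was most like Cfap206, Reg3g like Bpifb1, Pigr like Foxa1, Muc5b like Nme9, Agr2 like AU040972, Aqp3 and Tff2 both like Ccdc113, and Aqp5 and Dmbt1 each like a variable gene of the immunoglobulin kappa chain, at r of 0.998 or more. Lcn2 was most like Ifitm3, an interferon-induced protein, at r = 0.96, and Ifitm3 lay between 102 and 154 FPKM in all 8 libraries.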

How the data were processed

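Total RNA of mouse hearts was sequenced on an Illumina HiSeq platform in 8 libraries, 2 per group. FPKM values for 25929 genes were deposited by the authors, who made them from quality-filtered reads placed on the mouse transcriptome. The submitters' processing notes name HISAT2 and mm10/GRCm38. The counting program, its strand setting, the annotation and versions were not given in the sources used here. 4 blank lines were removed, and 77 genes had no symbol.

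Fragments were recovered from the FPKM values as whole numbers at a single length per gene (tolerance 0.0001), for 100% of genes, whereas 0 of 500 genes whose values had been altered at random gave whole fragments. The altered genes were drawn from genes above 0 in several libraries, so genes found in few, such as Tff2 and Dmbt1, were not covered. The recovered fragments served for floors, intervals and limma-voom.

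Differences were computed with limma (version 3.58.1, R 4.3.3, with a trended prior variance) on log2(FPKM + 1), using the 14442 genes that reached 1 FPKM in 2 or more libraries, with all 8 libraries in a single fit. This scale understates changes of low genes. The calculation was tested on simulated counts with the same spread for all genes and, apart from the genes set to differ, the same composition. The unlike composition of WT-TAC1 was therefore not covered by that test. Called genes had a fold over 1.5 and a p, adjusted after Benjamini and Hochberg, below 0.1. With 2 libraries against 2, an exact two-sided permutation test of a single gene cannot go below p = 0.333. The p-values rest on the spread within groups between samples labelled as independent, pooled over all 4 groups and moderated by the trended prior. They do not measure the spread of the 2 groups compared alone. Where a gene lay near 0 in some groups, those groups added little spread to the pool. Alternatives concerned scaling, filter, pseudocount, samples, replicate block, variance model, fragments and each library left out.

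The 10 genes and the lists were chosen with earlier results of these data known. Named genes were drawn from the 10, the 3 most abundant genes of each of 15 lists, called list genes, and those most alike by Pearson r. Not every gene that this rule allows was named. Mpo, Ngp, Krt5, Cldn4, Ehf, Muc5ac and Muc20 were named after their values were seen.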

Additional observations from a re-analysis of the deposited data

Results flagged for a closer look

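Wfdc2, an antiprotease-like protein of epithelium, passed the interaction test of genotype and surgery, with a log2 difference of -4.71 between the responses of fat-1 and wild-type mice (limma interaction, adjusted p = 0.0557). It was at 34.9 and 70.7 FPKM in WT-TAC, 1.61 and 1.70 FPKM in WT-Sham, 1.07 and 1.46 FPKM in Fat1-Sham and 0.916 and 0.419 FPKM in Fat1-TAC. Bpifb1, a secreted airway protein, had a difference of -4.23 (limma interaction, adjusted p = 0.0698), with 11.4 and 23.6 FPKM in WT-TAC and at most 0.270 FPKM elsewhere. Bpifb1 passed the filter only through WT-TAC, and both genes come from lists chosen with earlier results known, so these calls are no independent evidence of a difference in response. No related gene was called in the interaction when WT-Sham1, WT-Sham2, Fat1-Sham1, Fat1-TAC1 or Fat1-TAC2 was left out, nor with median-of-ratios scaling, quantile normalization, limma-voom, a pseudocount of 0.1, the replicate block or a filter at a mean of 5 FPKM.

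For Pigr and Muc5b, both libraries moved up with TAC in wild-type mice and both moved down in fat-1 mice, which set the responses apart by -3.15 and -1.43 on the log2 scale. The limma interaction called neither gene (adjusted p = 0.139 for Pigr and 0.495 for Muc5b). Of the 9 genes tested it called 2, beside 0.0692% of all genes tested. These were Ltf at -6.63 (limma interaction, adjusted p = 0.0533) and Reg3g at -4.72 (limma interaction, adjusted p = 0.0789). All 10 genes were selected on these values, so nothing is read from these calls. In the fat-1 mice the difference rested on 6 fragments of Pigr and 10 of Muc5b in Fat1-Sham against 0 of each in Fat1-TAC.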

How the results depend on the processing

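The counts of calls depended on the processing more than the directions did. For the 14 called differences of the 10 genes, 228 alternative values were computed, of which 0 had the opposite direction and 75 moved by more than the spread between replicates. In the order of the 10 genes called higher in WT-TAC (against WT-Sham), the 10 genes called lower in Fat1-TAC (against WT-TAC), the related genes called higher and lower in the same comparisons and the related genes called in the interaction, the counts were 7, 7, 8, 11 and 2. They were 1, 1, 2, 2 and 0 with a filter at a mean of 5 FPKM, where only Ltf and Reg3g of the 10 genes remained in the fit. The same counts came with quantile normalization, which removed none of the genes tested. They were 3, 3, 3, 4 and 0 with libraries scaled by their median of ratios, where the shift of all genes was -0.01 in both comparisons, and 0, 6, 0, 6 and 0 with limma-voom on recovered fragments. They were 5, 4, 3, 3 and 0 with a pseudocount of 0.1, 9, 9, 11, 13 and 5 without the filter, and 6, 3, 5 and 4 with only the 2 groups of a comparison in the fit. The cause was not tested. With each library left out in turn, the counts ranged from 0 to 8, 1 to 8, 0 to 29, 1 to 29 and 0 to 24, and the higher end of the last 3 came without WT-TAC2, when 6497 of all genes were called higher in WT-TAC. The interaction count was 1 without Fat1-Sham2 and 5 without WT-TAC1. The counts for Fat1-Sham against WT-Sham and for Fat1-TAC against Fat1-Sham were 0 under every alternative run. The median log2 difference of the 10 genes that were tested ranged from 1.73 with quantile normalization to 6.63 with limma-voom for WT-TAC against WT-Sham, and from -5.93 to -1.61 for Fat1-TAC against WT-TAC.

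With the replicate number as a block, the counts were 6, 5, 5, 6 and 0 in the same order, and 0 in the other 2 comparisons. Libraries with the same number did not deviate together, with correlations between -0.135 and 0.0236 over pairs of groups, so the numbers only name samples. Depth limited the genes with few fragments, since 1 fragment more or less outside WT-TAC changes the ratios of Muc5b, Agr2 and Aqp3.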
